A study of Rattus norvegicus with 7 samples.

Results

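The interleukin 1 family and its receptors were examined in the meibomian gland of the rat, the holocrine gland of the eyelid that makes the lipid of the tear film. The members were chosen by name: the cytokine genes Il1a, Il1b, Il18 and Il33, the antagonist gene Il1rn, the receptor genes Il1r1, Il1r2, Il1rap and Il1rl1, and the protease gene Casp1. All 10 were found among the 17246 genes of the deposited table, and all 10 were among the 13709 genes that passed the filter on low counts. The comparison set 4 libraries of glands from untreated wild-type female Sprague-Dawley rats aged 3 months against 3 libraries of exposed glands. The exposed glands came from wild-type rats of the same strain, sex and age whose upper eyelids had received ultraviolet B light (UVB). The exposure was 300 mJ/cm2 in 5 min per day on 5 days, and both the shaving of the lid and the exposure are described in a protocol shared by all samples. Whether the controls were shaved, and the time from the last exposure to dissection, are not given in the sources used here. The letters a to d name the control libraries and a to c the UVB libraries, without pairing any, and values by library are given in that order. The labels do not say that each library came from a separate animal, so p-values measure the spread between these libraries only.

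Interleukin 1 alpha and interleukin 1 beta act on cells through the receptor encoded by Il1r1, which needs the accessory chain encoded by Il1rap to signal. The family is held in check by a receptor antagonist (Il1rn), which occupies the receptor without signalling, and by a decoy receptor (Il1r2), which binds the cytokine but lacks the signalling domain. Interleukin 1 beta and interleukin 18 are made as inactive precursors that caspase 1 cuts, whereas interleukin 33 is a nuclear protein released from damaged epithelium that acts through the receptor encoded by Il1rl1 (also called ST2). Keratinocytes of the skin store interleukin 1 alpha and interleukin 33, which makes these cytokines early signals of epithelial injury.

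Of the 10 members, 4 passed the test between UVB and control glands, and 3 of these encode receptors that bind a cytokine. The signalling receptor gene Il1r1 and the interleukin 33 receptor gene Il1rl1 rose, while the decoy receptor gene Il1r2 and Casp1 fell. By edgeR's quasi-likelihood test, 1787 of 13709 genes passed an adjusted p under 0.05, which is 13.0% of the genes tested (6.30% higher and 6.74% lower), against 2 members higher and 2 lower. The ligand genes, the antagonist gene and the accessory chain gene did not pass. The median log2 fold change of the members was 0.078, and that of all genes tested was -0.0058. The CPM ranges of the groups did not overlap for 5 of the 10 members, against 26.6% of the genes tested. The members and the gene lists below were chosen with earlier results of these data known, so their counts are not independent evidence.

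**Figure D1:**
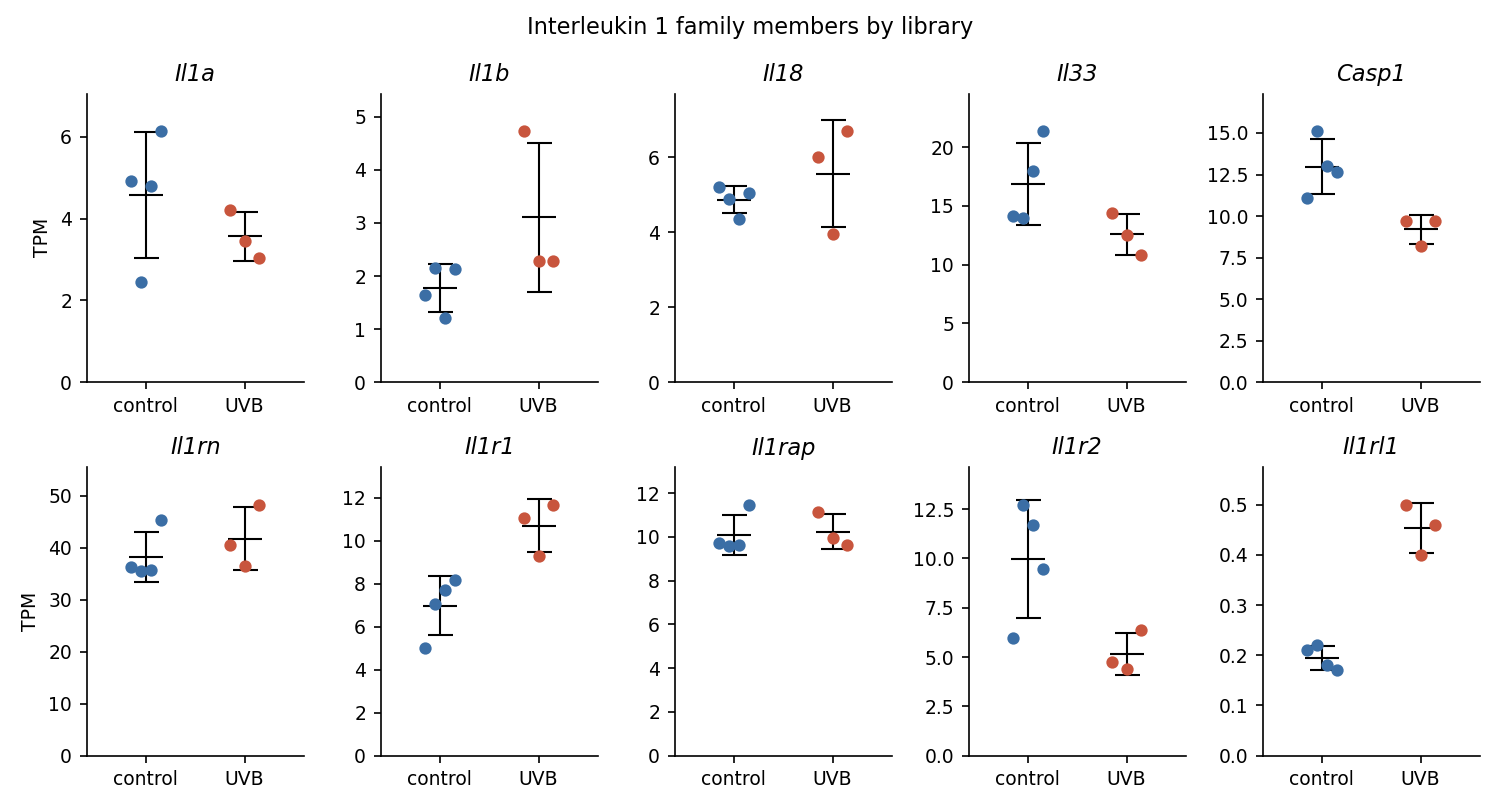
TPM of each of the 10 members (vertical axes, each starting at 0) in the 4 control libraries (blue) and the 3 UVB libraries (red), with the mean and SD in black. The groups stand apart for Il1r1, Il1rl1, Casp1 and Il1b, and overlap for the other 6.

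The promoters of the members that passed are shown because their genes are those the comparison turns on. RefSeq's table for assembly GRCr8 held windows for 9 of the 10 members; Il1r2 has no entry. Each sequence is the 250 bases before a listed start site, 5′ to 3′, and the span of each of these 3 genes begins upstream of the window, so the listed start is not the first base of the gene. Capitals mark matches to any of 4 motifs searched on both strands: AP-1 (TGANTCA), the kappaB motif of the NF-kB factors, the TATA box (TATAAA) and the STAT motif (TTCNNNGAA).
Il1r1 promoter, chr9:50034133-50034382, plus strand: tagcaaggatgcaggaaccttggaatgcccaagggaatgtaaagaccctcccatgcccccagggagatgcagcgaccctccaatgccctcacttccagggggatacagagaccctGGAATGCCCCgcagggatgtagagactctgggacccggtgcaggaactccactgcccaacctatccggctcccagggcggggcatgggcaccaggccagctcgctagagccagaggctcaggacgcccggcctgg
Il1rl1 promoter, chr9:50203388-50203637, plus strand: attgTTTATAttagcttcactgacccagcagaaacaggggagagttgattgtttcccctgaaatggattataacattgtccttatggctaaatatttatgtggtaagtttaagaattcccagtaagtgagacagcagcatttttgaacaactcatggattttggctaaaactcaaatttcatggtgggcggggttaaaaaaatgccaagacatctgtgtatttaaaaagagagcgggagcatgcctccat
Casp1 promoter, chr8:10872580-10872829, plus strand: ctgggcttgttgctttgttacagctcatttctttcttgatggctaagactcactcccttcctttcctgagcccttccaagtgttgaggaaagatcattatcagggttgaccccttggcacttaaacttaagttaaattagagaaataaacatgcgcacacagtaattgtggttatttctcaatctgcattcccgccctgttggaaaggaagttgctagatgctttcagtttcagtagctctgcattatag
The Il1r1 window held 1 kappaB match, 135 to 126 bases before the start on the minus strand, a motif found in 3.54% of 33469 windows of this length. Both windows of Il1rap, a member that did not pass, also held a kappaB match. The Il1rl1 window held 1 TATA match, 246 to 241 bases before the start, a motif found in 12.9% of the windows. The Casp1 window matched none of the 4. AP-1 matches were present in 6.34% of all windows and STAT matches in 7.67%. Among the members that did not pass, Il1a had an AP-1 match 12 to 6 bases before its listed start. TATA matches were in windows of Il1a, Il1b, Il1rn and Il33, which did not pass either. The Il1r1 window had 63.6% G and C with 8 CG pairs, while the Il1rl1 window had 38.4% with 2 and the Casp1 window 42% with 2. The median of all windows was 51.2% with 5 CG pairs. A match is a run of letters and was not tested as a binding site.

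The transcript of the receptor that carries the interleukin 1 signal was more abundant in the UVB glands. Il1r1 (NCBI gene 25663) measured 5.01, 7.06, 7.69 and 8.16 TPM in the 4 controls and 11.08, 9.31 and 11.68 in the 3 UVB libraries. All 3 UVB libraries lay above all 4 controls. TPM is transcript abundance corrected for gene length, so levels of different genes can be compared on it. Counts scaled to a common library total (CPM) averaged 15.5 ± 3.27 without and 23.5 ± 2.50 with UVB (SD, n = 4 and n = 3). This was a 1.52-fold rise, or 0.60 on the log2 scale with an SE of 0.16 (edgeR adjusted p = 0.0409). Some markers of fibroblasts and of endothelium, both of which can carry this receptor, rose as well. These were 3 of 5 fibroblast markers (Dcn, Lum and Pdgfra) and 2 of 5 endothelial markers (Cdh5 and Vwf), against 6.30% of all genes tested. The fibroblast markers Col1a1 (log2 fold change -0.48) and Col3a1 (0.019) did not pass, nor did the endothelial markers Emcn (-0.20), Kdr (0.46) and Tek (0.24). In whole glands, more cells of a type and more RNA per cell cannot be told apart, and the part of these cells in the result was not tested.

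The transcript of the decoy receptor moved the other way. Il1r2 (NCBI gene 117022) measured 5.97, 12.73, 11.7 and 9.48 TPM in the 4 controls and 4.74, 4.39 and 6.39 in the 3 UVB libraries. Control a lay below UVB c, so the groups overlapped, while the other 3 controls were above every UVB library. The CPM averaged 7.61 ± 2.23 and 3.94 ± 0.797 (SD, n = 4 and n = 3). On the log2 scale the difference was -0.95 with an SE of 0.26 (edgeR adjusted p = 0.0407). The accessory chain gene Il1rap, which serves both Il1r1 and Il1rl1, spanned 9.56 to 11.47 TPM without and 9.62 to 11.15 TPM with UVB. Its log2 fold change of 0.014, with a 95% interval of -0.23 to 0.26, did not pass (edgeR adjusted p = 0.9503).

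Because the decoy and the signalling receptor bind the same cytokines, the ratio of their transcripts was followed in each library. Transcripts of Il1r2 per transcript of Il1r1 were 1.19, 1.80, 1.52 and 1.16 in the 4 controls and 0.428, 0.472 and 0.547 in the 3 UVB libraries. By TPM, the decoy transcript was the more abundant of the pair in 4 of 4 controls and the less abundant in 3 of 3 UVB libraries. In counts Il1r2 was below Il1r1 in every control, at 99, 209, 254 and 171 against 234, 339, 474 and 438. Which of the 2 was the more abundant in the controls thus rests on the correction for length, and the annotation behind it is not given. The mean ratio was 1.42 ± 0.303 without and 0.482 ± 0.0603 with UVB (SD, n = 4 and n = 3), a 2.91-fold lower geometric mean. The difference on the log2 scale was -1.54 and ran from -1.64 to -1.42 when 1 library was left out. The ratio is given as a description with no test.

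The largest rise among the members was that of Il1rl1 (NCBI gene 25556), the receptor of interleukin 33, and it rested on few reads. Its counts were 12, 13, 14 and 11 in the 4 controls and 28, 28 and 32 in the 3 UVB libraries. The groups did not overlap, although a count of 11 has an exact Poisson 95% interval of 5.49 to 19.7 and a count of 28 one of 18.6 to 40.5, which cover counting error only. In TPM these were 0.17 to 0.22 in the controls and 0.4 to 0.5 after UVB. The rise was 2.29-fold, or 1.19 on the log2 scale with an SE of 0.26 (edgeR adjusted p = 0.0199). The gene encodes a membrane receptor and a soluble form that traps interleukin 33, and the counts per gene do not separate them.

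Its ligand gene Il33 (NCBI gene 361749) measured 14.15, 14.01, 18.01 and 21.37 TPM in the 4 controls and 14.36, 12.56 and 10.82 in the 3 UVB libraries. UVB a lay between the controls in TPM, whereas in CPM the groups did not overlap, at 24.8 ± 5.02 and 18.3 ± 2.32 (SD, n = 4 and n = 3). The log2 fold change of -0.44 (SE 0.16) did not pass (edgeR adjusted p = 0.0994, unadjusted p = 0.0203). Transcripts of Il1rl1 per transcript of Il33 were 0.0148, 0.0157, 0.00999 and 0.00796 in the 4 controls and 0.0348, 0.0318 and 0.0425 in the 3 UVB libraries. Receptor transcripts remained scarce beside those of the ligand in every library. The ratio averaged 0.0121 ± 0.00375 and 0.0364 ± 0.00550 (SD, n = 4 and n = 3), a 3.10-fold higher geometric mean after UVB.

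**Figure D2:**
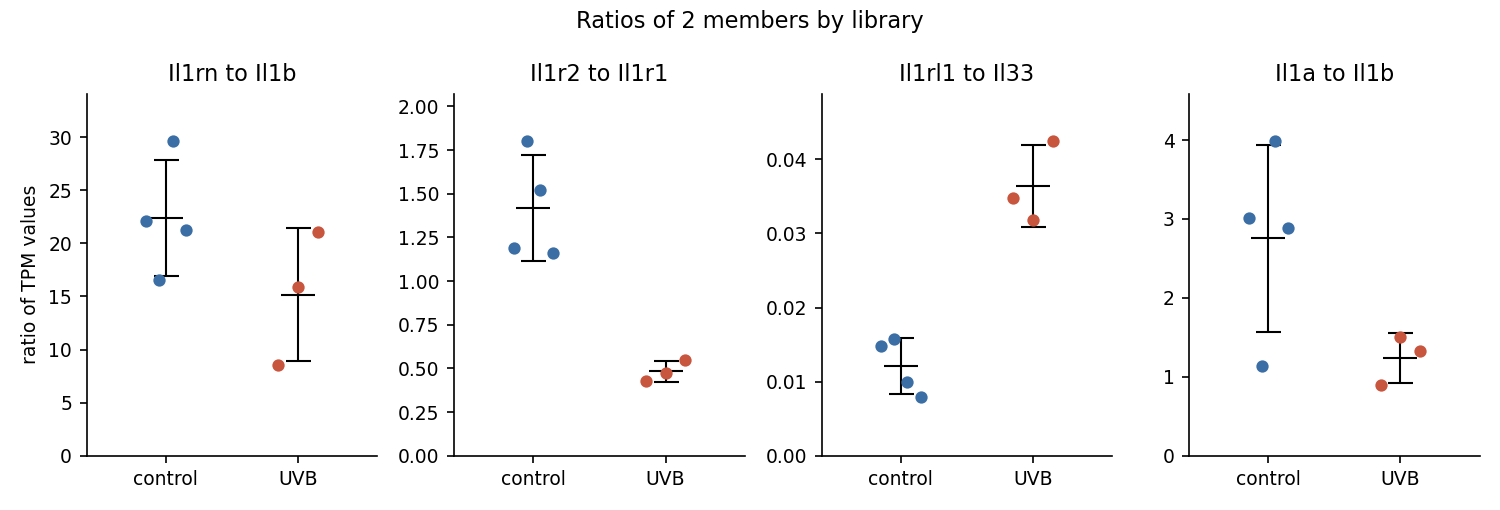
Ratios of TPM values (vertical axes, each starting at 0) for 4 pairs of members in the control (blue) and UVB (red) libraries, with the mean and SD in black. The ratios of Il1r2 to Il1r1 and of Il1rl1 to Il33 stand apart between the groups, and those of Il1rn to Il1b and of Il1a to Il1b overlap.

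The transcript of the protease that cuts the precursors of interleukin 1 beta and interleukin 18 was lower after UVB. Casp1 (NCBI gene 25166) measured 11.07, 15.11, 12.99 and 12.68 TPM in the 4 controls and 9.71, 8.2 and 9.73 in the 3 UVB libraries. Every UVB library was below every control. The CPM averaged 9.57 ± 1.20 and 6.73 ± 0.549 (SD, n = 4 and n = 3). UVB glands held 0.704 of the control level, a log2 fold change of -0.51 with an SE of 0.14 (edgeR adjusted p = 0.0393).

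The genes of both these precursors, of interleukin 1 beta and of interleukin 18, had few counts. Il1b (NCBI gene 24494), which encodes interleukin 1 beta, had counts of 27, 34, 26 and 37 in the 4 controls and 72, 45 and 45 in the 3 UVB libraries. In TPM these were 1.64, 2.15, 1.2 and 2.13 against 4.73, 2.29 and 2.29. Only UVB a stood far above the controls, and in TPM UVB b and c exceeded the highest control by less than 1 SD of the controls (0.453). The log2 fold change of 0.78 (SE 0.32) did not pass (edgeR adjusted p = 0.139) and was 0.39 without UVB a. Il18 (NCBI gene 29197), the gene of interleukin 18, had 49 to 63 counts in the controls and 62, 48 and 95 in UVB a to c. Its TPM was 4.36 to 5.2 and 3.96 to 6.69, with a log2 fold change of 0.20 and a 95% interval of -0.36 to 0.76 (adjusted p = 0.638). In GRCr8 the span of Il18 overlaps Bco2 and Tex12, and the handling of strand is not given in the sources used here, so its counts are uncertain.

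The gene of interleukin 1 alpha, the form active without cutting, also did not pass. Il1a (NCBI gene 24493) measured 4.93, 2.45, 4.79 and 6.14 TPM in the 4 controls and 4.21, 3.45 and 3.04 in the 3 UVB libraries. The UVB libraries all lay within the range of the controls, which control b extended downward. The log2 fold change of -0.37 came with a 95% interval of -0.99 to 0.25 (edgeR adjusted p = 0.410), and it was -0.18 without control d and -0.57 without control b. Transcripts of Il1a per transcript of Il1b averaged 2.75 ± 1.19 without and 1.24 ± 0.317 with UVB (SD, n = 4 and n = 3), and the ranges of 1.14 to 3.99 and 0.890 to 1.51 overlapped.

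The gene of the receptor antagonist had by far the most abundant transcript of the members. Il1rn (NCBI gene 60582) measured 36.2, 35.6, 35.61 and 45.36 TPM in the 4 controls and 40.54, 36.37 and 48.26 in the 3 UVB libraries. The groups overlapped, and the log2 fold change was 0.14 with a 95% interval of -0.17 to 0.46 (edgeR adjusted p = 0.529). Its span overlaps Il36b in GRCr8. Transcripts of Il1rn per transcript of Il1b were 22.1, 16.6, 29.7 and 21.3 in the 4 controls and 8.57, 15.9 and 21.1 in the 3 UVB libraries. UVB c fell among the controls, and the difference of -0.63 on the log2 scale was -0.26 without UVB a, the library with the most Il1b.

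In the controls the order of levels by mean TPM was Il1rn (38.2 ± 4.79), Il33 (16.9 ± 3.52), Casp1 (13.0 ± 1.66), Il1rap (10.1 ± 0.924), Il1r2 (9.97 ± 2.99), Il1r1 (6.98 ± 1.39), Il18 (4.87 ± 0.363), Il1a (4.58 ± 1.54), Il1b (1.78 ± 0.453) and Il1rl1 (0.195 ± 0.0238), each as SD with n = 4. The ranges of neighbours in this order were apart only between Il1rn and Il33, between Il1a and Il1b, and between Il1b and Il1rl1. After UVB the order was Il1rn (41.7), Il33 (12.6), Il1r1 (10.7 ± 1.23), Il1rap (10.2), Casp1 (9.21), Il18 (5.55), Il1r2 (5.17 ± 1.07), Il1a (3.57), Il1b (3.10) and Il1rl1 (0.453), with n = 3. There the ranges of neighbours were apart between Il1rn and Il33, Casp1 and Il18, Il1r2 and Il1a, and Il1b and Il1rl1.

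The 4 calls lay close to the threshold and depended on the libraries in the fit, while their directions did not change in any of the fits run. Without control a all 4 passed. Il1rl1 passed also without control b and without UVB b, and its edgeR adjusted p was 0.0567 when control c was left out, 0.0553 for control d, 0.0547 for UVB a and 0.0522 for UVB c. Il1r1 passed also without control d. It reached 0.0846 when control b was left out, 0.0824 for control c, 0.0930 for UVB a, 0.0625 for UVB b and 0.116 for UVB c. Il1r2 reached 0.0887 when control b was left out, 0.102 for control c, 0.0853 for control d, 0.109 for UVB a, 0.129 for UVB b and 0.0502 for UVB c. Casp1 reached 0.0938 when control b was left out, 0.0835 for control c, 0.0913 for control d, 0.0745 for UVB a, 0.122 for UVB b and 0.0667 for UVB c. The sizes moved less: across these 7 fits the log2 fold change ran from 1.13 to 1.27 for Il1rl1, 0.47 to 0.71 for Il1r1, -1.13 to -0.81 for Il1r2 and -0.56 to -0.42 for Casp1. No member passed by edgeR without control c, UVB a or UVB c, and 5 had an unadjusted p under 0.05 in each of those fits. Over all genes the number of calls went from 1787 to between 851 and 1214 in the 6 fits other than the one without control a.

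**Figure D3:**
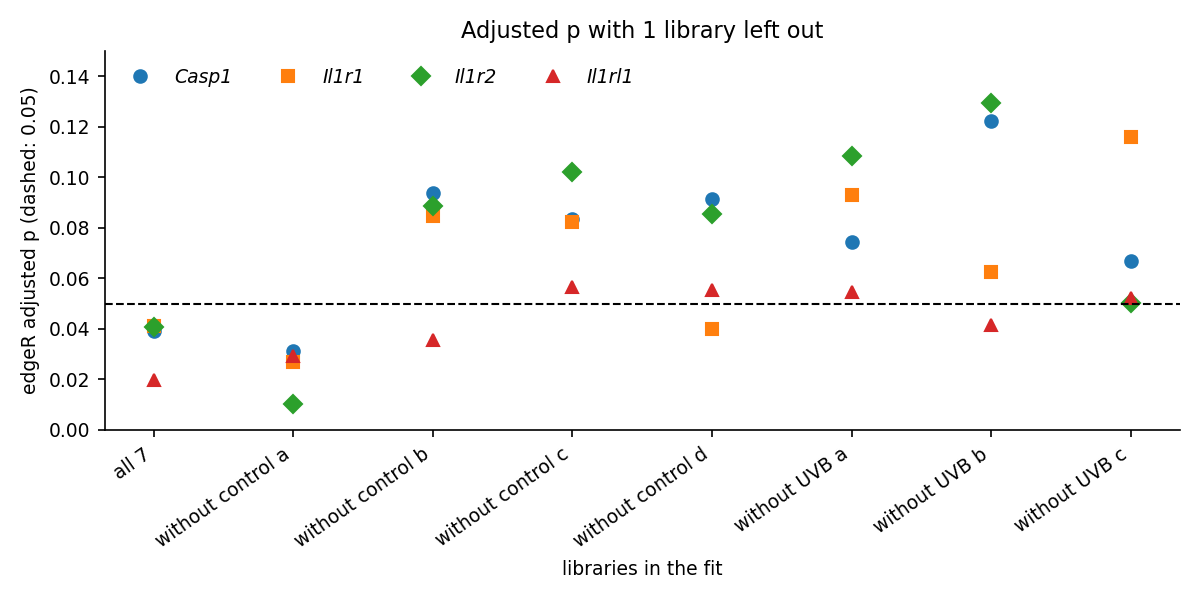
Adjusted p of the 4 members that passed (vertical axis; edgeR, dashed line at 0.05) in the fit of all 7 libraries and in the 7 fits that each left out 1 library (horizontal axis). All 4 lie under the line without control a, and at most 1 does in each of the other 6 fits.

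Other tests kept some of the calls. DESeq2 called the same 4 members, as did edgeR with DESeq2 size factors and edgeR with no filter on low counts. Limma-voom called Casp1, Il1r1 and Il1rl1 and missed Il1r2 (adjusted p = 0.0605). Scaling by library size alone left Il1rl1, with Casp1 at 0.0596, Il1r1 at 0.0611 and Il1r2 at 0.0565. On log2(TPM + 1) with a mean of at least 1 TPM, limma called Casp1 and Il1r1, and with a pseudocount of 0.1 it called Casp1, with Il1r1 at 0.0522 and Il1r2 at 0.0631; Il1rl1 was too scarce to enter these fits. With every gene above 0 on log2(TPM + 1) it was the 1 member called, with Casp1 at 0.0523 and Il1r1 at 0.0696. A mean count of at least 50 kept the calls of Casp1, Il1r1 and Il1r2 and left Il1rl1 and Il1b untested.

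**Figure D4:**
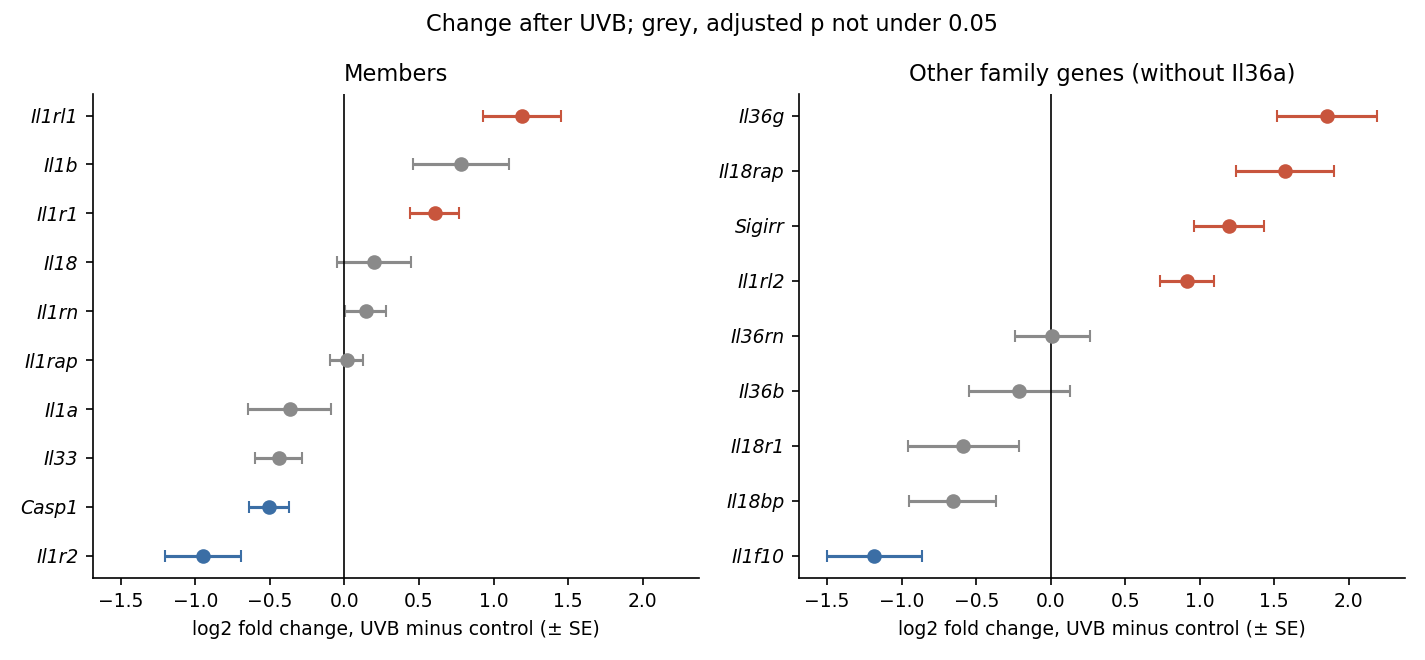
Log2 fold change of the members (left) and of 9 other genes of the family (right), UVB minus control, with bars of 1 SE from edgeR. Coloured points passed an adjusted p under 0.05 (red higher, blue lower) and grey points did not; Il36a is left out because its controls held at most 3 counts.

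The other ligands, receptors and binding proteins of the family were examined as a list of 12 genes, 10 of which were tested. Of these, 5 rose and 1 fell, against 6.30% and 6.74% of all genes tested, with a median log2 fold change of 0.46 beside -0.0058 for all genes. This list too was chosen with earlier results known, so its count is not independent evidence of a direction. The interleukin 36 branch, whose ligands are made by epithelium, held the largest rises. Il36a had 3, 0, 0 and 2 counts in the 4 controls and 9, 32 and 40 in the 3 UVB libraries. Pooled over libraries this was a 21.2-fold higher level with an exact 95% counting interval of 8.71 to 66.9, and the gene passed (edgeR adjusted p = 0.0101). The pooled ratio was 41.0 without control a and 14.7 without control c. The gene entered 4 of the 7 fits that left out 1 library and passed in each of the 4. Il36g measured 1.94, 1.66, 1.12 and 1.94 TPM in the 4 controls and 3.51, 5.48 and 8.98 in the 3 UVB libraries, a log2 fold change of 1.86 (SE 0.34, adjusted p = 0.0104). Every UVB library was above every control for both genes, and UVB a was the lowest of the 3 for both, whereas it was the highest for Il1b.

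Il1rl2, the gene of the interleukin 36 receptor, rose with them. It measured 2.71, 4.26, 3.46 and 4.31 TPM in the 4 controls and 7.68, 6.03 and 7.28 in the 3 UVB libraries (log2 fold change 0.92, SE 0.18, edgeR adjusted p = 0.0133), and it passed in each of the 7 fits that left out 1 library. The antagonist of that receptor, Il36rn, did not pass (0.0092, SE 0.25, adjusted p = 0.987), nor did Il36b (-0.21, SE 0.34, adjusted p = 0.723). Il1f10, which encodes interleukin 38, fell by 1.18 on the log2 scale (SE 0.32, adjusted p = 0.0392), a call kept in 1 of the 7 fits. Spans of Il36b, Il36rn and Il1f10 overlap in GRCr8, so their counts are uncertain.

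Transcripts of the interleukin 18 receptors were scarce. Il18rap, the accessory chain, had 6, 11, 18 and 10 counts in the 4 controls and 21, 42 and 40 in the 3 UVB libraries (log2 fold change 1.57, SE 0.33, edgeR adjusted p = 0.0169), and it missed without UVB b (0.0566) or UVB c (0.05005). Il18r1, the binding chain, did not pass (-0.59, SE 0.37, adjusted p = 0.327), nor did Il18bp, which encodes a protein that traps interleukin 18 (-0.66, SE 0.29, adjusted p = 0.170). Sigirr, an inhibitory receptor of the family, rose by a log2 fold change of 1.20 (SE 0.24, adjusted p = 0.0140). Its counts were not whole in any library and its span overlaps Pkp3, so its level is uncertain.

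Most of the receptor genes lie next to each other. In the RefSeq table of GRCr8 the order on chromosome 9 is Il1r2, Il1r1, Il1rl2, Il1rl1, Il18r1 and Il18rap, and no other gene is listed between Il1r1 and Il18rap. Along this row the log2 fold changes were -0.95, 0.60, 0.92, 1.19, -0.59 and 1.57, so that 4 of the 6 rose, Il1r2 at one end fell and Il18r1 did not pass. On chromosome 3 the order is Il36g, Il36a, Il36b, Il36rn, Il1f10, Il1rn, Il1a and Il1b, where the first 6 lie together and Il1a and Il1b lie far from them. Il36g and Il36a rose, Il1f10 fell, and the 3 members did not pass.

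**Figure D5:**
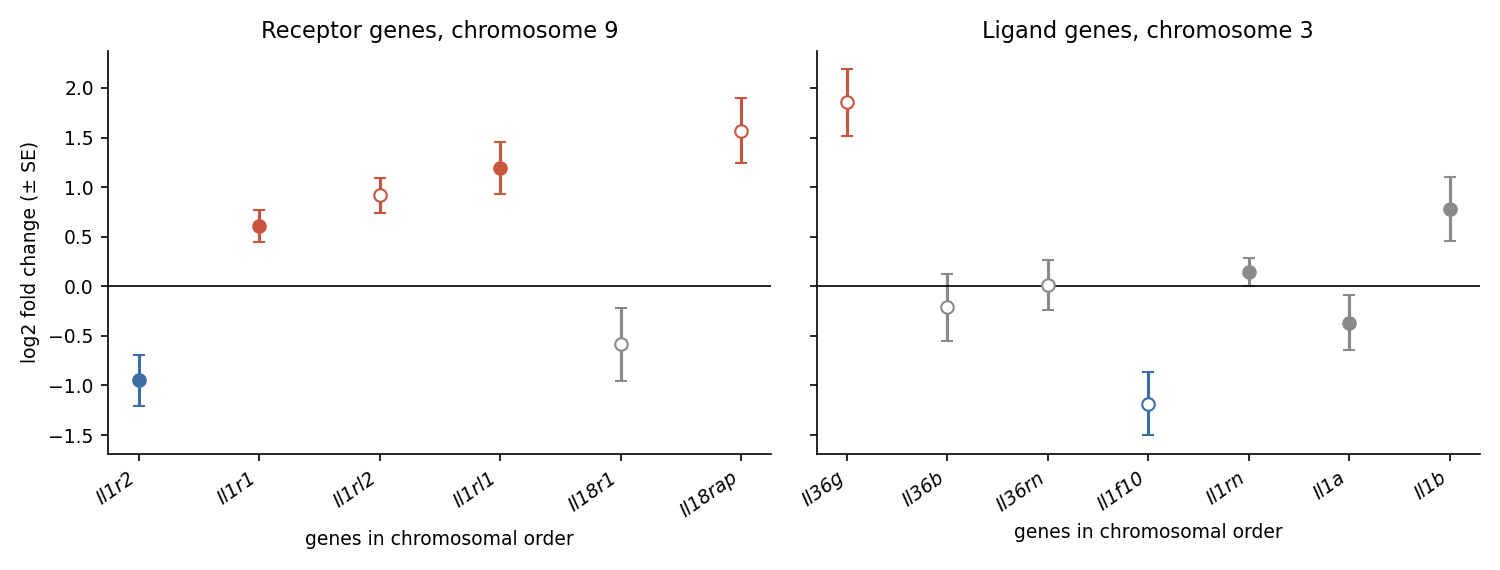
Log2 fold change with 1 SE (vertical axis; UVB minus control, edgeR) of the family's genes on chromosome 9 and chromosome 3, in their order in the RefSeq table and without spacing to scale; Il1a and Il1b lie far from the other genes of chromosome 3. Filled points are members and open points other family genes; red and blue passed an adjusted p under 0.05, grey did not, and Il36a is left out.

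Around caspase 1, the list of inflammasome and processing genes had 1 gene higher and 1 lower of 16 tested, a share of 12.5% beside 13.0% of all genes tested. Ninj1, which encodes a protein of membrane rupture, rose by 0.58 (log2, SE 0.11, edgeR adjusted p = 0.0132), and Txnip, a regulator of thioredoxin, fell by 0.79 (SE 0.18, adjusted p = 0.0278). The sensor gene Nlrp3 (0.65, SE 0.52, adjusted p = 0.436), the adaptor gene Pycard (-0.57, SE 0.20, adjusted p = 0.0908) and the pore gene Gsdmd (0.60, SE 0.22, adjusted p = 0.108) did not pass. The call of Txnip was missed without control c (0.0633), UVB a (0.0810), UVB b (0.0869) or UVB c (0.0566).

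Downstream of the receptors, 1 of 24 tested signalling genes rose and 2 fell, a share of 12.5% beside 13.0% of all genes tested, with a median of 0.019. Myd88, the adaptor shared by the receptors of the family, measured 28.85 to 30.96 TPM in the controls and 37.26 to 39.56 TPM after UVB. The rise of 0.36 on the log2 scale (SE 0.061, edgeR adjusted p = 0.00797) passed in each of the 7 fits that left out 1 library. Its span overlaps Acaa1a. Peli1, a ubiquitin ligase of the pathway, fell by 0.35 (SE 0.071, adjusted p = 0.0151), with counts that were not whole, and the kinase gene Irak2 fell by 0.40 (SE 0.10, adjusted p = 0.0356). Irak2 passed in 2 of the 7 fits.

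Of 26 tested genes known to be induced by interleukin 1 or NF-kB, 11 rose and 1 fell, against 6.30% and 6.74% of all genes tested, with a median log2 fold change of 0.61. The list was written with earlier results on some of its genes known, so its count is not independent evidence of a direction. The smallest p-values belonged to the adhesion gene Selp (1.82, SE 0.22), the protease gene Mmp9 (2.77, SE 0.40), Lcn2, the prostaglandin synthase gene Ptgs2 (3.00, SE 0.44), the chemokine gene Ccl2 (2.55, SE 0.40) and the adhesion gene Icam1 (0.84, SE 0.14), at edgeR adjusted p-values from 0.00300 to 0.00739. Lcn2 had 1, 3, 1 and 0 counts in the 4 controls and 288, 162 and 56 in the 3 UVB libraries. Pooled, this was 132-fold higher with an exact 95% counting interval of 56.3 to 409, which leaves out the spread between libraries. The ratio was 80.2 without UVB a and 256 without control b. Ptgs2 had 12, 14, 15 and 16 counts in the 4 controls and 185, 77 and 76 in the 3 UVB libraries, and Ccl2 had 23, 26, 16 and 15 against 175, 95 and 85. Both were highest in UVB a, as Il1b was, and without UVB a the log2 fold change of Ptgs2 was 2.29. The gene that fell was Nos2, the inducible nitric oxide synthase (-1.59, SE 0.38, edgeR adjusted p = 0.0318). The 14 genes that did not pass pointed both ways. Nfkbia (-0.20), Nfkbiz (-0.40), Tnfaip3 (-0.22), Birc3 (-0.25), Csf3 (-0.22) and Hp (-0.21) were below 0. Cxcl3 (2.44), Mmp3 (0.93), Ccl20 (0.77), Lif (0.43), Cxcl1 (0.41), Vcam1 (0.22), S100a8 (0.14) and Zc3h12a (0.10) were above 0. Of the whole list, 8 genes passed as higher without control a and 7 without control b. Many genes of the list also respond to other signals, and their dependence on interleukin 1 was not tested.

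Interleukin 33 acts on mast cells and other type 2 immune cells, for which 3 of 10 tested genes rose, against 6.30% of all genes tested: Tpsab1 (1.72, SE 0.29), the histamine synthesis gene Hdc (4.41, SE 0.67) and Cpa3 (1.09, SE 0.25), at edgeR adjusted p-values of 0.00770, 0.00791 and 0.0223. Hdc had 6, 11, 9 and 10 counts in the 4 controls and 353, 79 and 126 in the 3 UVB libraries, and without UVB a its log2 fold change was 3.36. Cpa3 passed in 4 of the 7 fits. The list of type 2 genes was also chosen with earlier results known, so its count is not independent evidence of a direction. Areg (0.83), Hpgds (0.19) and Gata3 (-0.16) of this list did not pass. Il9r, left out by the filter on low counts, had 9, 8, 10 and 11 counts in the 4 controls and 2, 1 and 2 in the 3 UVB libraries. DESeq2 called 1 gene of the list lower. The summed TPM of 7 mast cell markers was 21.6 to 30.04 in the controls and 39.7 to 49.5 after UVB. Tpsab1, Hdc and Cpa3 were the markers called. Cma1 (0.67), Ms4a2 (0.85) and Tpsb2 (0.63) pointed the same way but did not pass, so only part of the mast cell markers passed with Il1rl1. Most of each control sum was Kit (15.06 to 20.88 TPM), which other cells also express and which did not pass (edgeR adjusted p = 0.0693). The part of mast cell number in the rise of Il1rl1 was not tested.

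Markers of other cells were also followed, beside 6.30% of all genes tested that rose and 6.74% that fell. The 5 fibroblast markers had overlapping sums of 895.5 to 1402 TPM without and 1176 to 1900 TPM with UVB. The 5 endothelial markers summed to 40.7 to 49.4 TPM and 49.9 to 55.1 TPM. Of 9 macrophage markers 4 rose (C1qb, C1qc, Cd163 and Mrc1), with overlapping sums of 177 to 499 TPM and 207 to 347 TPM. The markers C1qa (0.85), Adgre1 (0.11), Csf1r (-0.0093), Cd68 (-0.41) and Lyz2 (-0.77) did not pass. Of 5 tested markers of Langerhans and dendritic cells 2 fell, the Langerhans cell gene Cd207 (-1.24) and Epcam (-0.33), with overlapping sums of 543 to 778 and 465 to 590 TPM. Flt3 pointed the other way (1.04) but did not pass, nor did Cd74 (-0.23) and Itgax (-0.41). Nearly all of each sum was Epcam and Cd74, at means of 371 and 267 TPM in the controls, so the sums say little of the other markers. Cd207 averaged 19.5 TPM there, and which cells the Epcam RNA came from was not tested. Neutrophil markers summed to 1584 to 1782 TPM and 1846 to 2119 TPM, nearly all of it from S100a8 and S100a9, which epithelium also makes. Of 5 tested neutrophil markers 2 rose: S100a9 (0.46, SE 0.12, edgeR adjusted p = 0.0333) and the neutrophil growth factor receptor gene Csf3r (3.16, SE 0.49, adjusted p = 0.00608), with 2, 6, 6 and 7 counts without and 43, 24 and 80 with UVB. Elane was at 0 in every library, and Ngp and Camp had at most 3 counts. The 9 meibocyte markers were all measured and summed to 42721 to 51628 TPM in the controls and 38678 to 45199 TPM after UVB. Of these 9, 2 fell, with every UVB library below every control: the wax synthesis gene Awat2 (-0.66, SE 0.093, edgeR adjusted p = 0.00453) and the lipid droplet gene Plin2 (-0.45, SE 0.077, adjusted p = 0.00826). Of 5 basal keratinocyte markers 2 rose, Krt14 (0.47) and Itga6 (0.25), with sums of 8061 to 10275 TPM and 10509 to 11611 TPM that did not overlap. Krt5 (-0.021), Tp63 (-0.089) and Col17a1 (-0.18) did not pass, and the median of the list was -0.021. Mean Krt14 was 5279 TPM without and 7338 TPM with UVB, whereas mean Krt5 was 3564 and 3529 TPM. Of 6 suprabasal markers 1 fell, Krt77 (-5.90), with overlapping sums of 2602 to 3204 TPM and 2714 to 4162 TPM. Of 4 tested T cell markers 1 rose, Cd8a (2.48), with overlapping sums of 4.63 to 6.1 TPM and 3.4 to 8.43 TPM. Cd3e (-0.55), Cd3g (-0.27) and Lck (0.028) did not pass, and the median of that list was -0.12. Skeletal muscle markers summed to 1827 to 2571 TPM and 1214 to 2219 TPM. Their part in the results was not tested.

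The genes whose log2 CPM followed each called member most closely over the 7 libraries were named by a fixed rule. For Il1r1 they were Ikbip (Pearson r = 0.996), Gpr171 (0.991) and Trarg1 (0.986). For Il1r2 they were Kank1 (0.992), Ror2 (0.990) and Cir1 (0.983), and for Casp1 they were Slc7a2 (0.996), Manba (0.994) and Trim23 (0.992). These values describe 7 libraries that share group and depth, chosen as the highest of all tested genes. Il1rl1 had a mean count of 19.7, below the minimum of 50 for this step.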

How the data were processed

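RNA sequencing counts of 4 control and 3 UVB libraries were used, with 20680237 to 28784941 counts per library. The authors deposited expected counts (estimated counts per gene, 12.5% of values not whole) and TPM values, which sum to 82.0% to 84.1% of 1000000 per library in the rows used here. FastQC, Trimmomatic, DRAGEN, Picard and the build rn7 are named, without versions or roles, per the submitters' processing notes. The annotation, the counting options and strand handling are not given in the sources used here. Because gene names with commas shift the cells, each row's last 7 cells were taken as its values, and 5 rows with fewer were left out. Counts were rounded; all counts of the members were whole. The design had assumed whole counts.

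Here, edgeR 4.0.16 (R 4.3.3) was run with TMM factors, filterByExpr, robust quasi-likelihood fits and Benjamini-Hochberg adjustment over all 13709 genes, two-sided, with a threshold of 0.05. SE is the absolute log2 fold change over the square root of F, and 95% intervals use the t quantile at the test's degrees of freedom. The fits were tested on simulated data. The alternatives used DESeq2 1.42.0, limma 3.58.1, other factors and filters, TPM, and 1 library left out at a time. Libraries of 1 group differed by more than sampling noise (chi-square per degree of freedom at least 10.5). The members and gene lists were chosen with earlier results of these data known. The rule for names took all members and up to 6 called genes of each list with the smallest p. It also took the 3 genes most correlated with each called member of mean count at least 50. Genes named beyond the rule were Il36b, Il36rn, Il18r1, Il18bp, Nlrp3, Pycard, Gsdmd, Nos2, Areg, Hpgds, Gata3 and Il9r. Also beyond it were the genes induced by interleukin 1 or NF-kB that did not pass, the overlapping genes and the cell type markers. All of these were named after their values were seen. Of 183 listed symbols, 15 were not matched and were not analysed here. Sequences and gene order are from RefSeq's GRCr8 tables, which are not of the build named in the notes.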

Additional observations from a re-analysis of the deposited data

Results flagged for a closer look

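Among 14 values compared within the 4 controls (the TPM of 10 members and 4 ratios), 2 had a single library standing away from the rest; by chance about 1 in 20 such groups does. Both were in control d. Il1rn measured 45.36 TPM there against 35.6 to 36.2 TPM elsewhere, and the gap to its nearest neighbour took 0.939 of the whole range. In CPM this share was 0.734, which is under the critical value of Dixon's test. Il1rap measured 11.47 TPM in control d against 9.56 to 9.71 TPM, a share of 0.921 of the range, and 0.846 in CPM. Without control d the log2 fold change of Il1rn was 0.27 and that of Il1rap 0.086, and neither passed.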

How the results depend on the processing

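No paired analysis was possible because column names show the group but no number of a replicate. Of the members, 4 passed in the fit of all libraries. The count was 1 with library size alone, 2 with log2(TPM + 1) at a mean of at least 1 TPM, 1 with log2(TPM + 0.1), 1 with log2(TPM + 1) for every gene above 0, and 0 to 4 with 1 library left out. With 1 library left out, 851 to 1898 genes passed in all, 421 to 927 higher and 430 to 971 lower, and log2(TPM + 1) for every gene above 0 gave 571 lower. Fewer libraries or genes tested are part of these settings; otherwise the cause was not tested. Signs changed for 4 genes that had not passed. Il36rn was -0.033 under limma-voom, -0.017 under both log2(TPM + 1) fits and -0.022 under log2(TPM + 0.1), and ran from -0.37 to 0.21 with 1 library left out. Il1rap ran from -0.029 to 0.086, Il18 from -0.041 to 0.43 and Il36b from -0.65 to 0.082. The 4 called members kept their direction in every fit that tested them. Among the members, Il1rl1 and Il1b had the fewest counts.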
